A study of Mus musculus with 32 samples.

Results

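The comparison described here is the effect of Ftsj1 deficiency on the heart degradome. It covers every named gene of the heart table, 55289 genes, and rests on 6 of the 32 libraries of the series. All genes of the table were taken, so no measured value chose them. Degradome sequencing captures the 5′ ends of polyadenylated RNA that carry no cap, and the count of a gene is the number of short tags from such ends. The groups were hearts of Ftsj1_DF mice 1647, 1654 and 1656 and of WT mice 1646, 1653 and 1655. All 6 were untreated male mice aged 4 months and belonged to 1 batch. Mice 1646 and 1647 were brothers, as were mice 1653 to 1656, so each set of brothers held both genotypes. Whole heart was used, which holds muscle, vessel, connective tissue, nerve and blood cells, and 5 µg of total RNA entered each library. How the deficiency was made, and whether any cell type was targeted, is not given in the sources used here.

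Ftsj1 is an X-linked gene whose enzyme adds methyl groups to the 2′ oxygen of ribose at positions in the anticodon loop of several tRNAs. Most cytosolic mRNAs carry a cap, and an uncapped 5′ end arises when the cap is removed or the RNA is cut, after which an exonuclease degrades the rest from that end. A tag count therefore depends on how much of a transcript is made and on how it is degraded, and the counts cannot tell these apart. In whole tissue, fewer cells of a type and fewer tags per cell also cannot be told apart. The adult heart takes most of its energy from fatty acids burned in mitochondria, whose own genome encodes a few respiratory subunits together with the tRNAs and rRNAs that translate them.

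The tissue label was checked against its markers. The contractile genes Myh6, Myl3 and Tnni3 had means of 625751, 1867438 and 1547406 normalized counts in the authors' deposited table for heart, against 1442 to 8681 in the other organs' tables. Their log2 fold changes in the heart table, deficient over wild-type, were -0.14, 0.12 and 0.00, and none passed. The hepatocyte gene Alb had a mean of 23967 in the heart table, the lowest of the 5. The tables named for brain and liver held the markers of the other organ, with Alb at 16371074 in the brain-named table and the neuronal gene Syt1 highest in the liver-named table, so both are called by their names here.

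The deposited table gives only a mean over the 6 libraries, a fold change and its test. Whole tag counts per library were recovered for 11071 of the 19847 tested genes, 55.8%. For these only 1 set of whole numbers returned both the mean and the deposited fold change. Where a side had next to no tags, only the sign of the fold change had to match. Refitted fold changes differed from the deposited ones by at most 2.1e-05 on the log2 scale, for genes of mean up to 200 with tags on both sides. Closeness to the deposited fold change was the rule for keeping a set, so this is no separate check of the counts. Each library lies on the wild-type or the deficient side of the authors' comparison. Within a side the libraries are called a, b and c in falling order of size factor, 1.266, 1.089 and 0.916 for wild-type and 1.055, 0.918 and 0.848 for deficient. These letters have no known link to the mouse numbers. Values per library below are normalized counts, the recovered tags divided by the size factor, and are given in the order a, b, c.

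Ftsj1 itself had 339, 613 and 324 normalized counts in the wild-type libraries and 5.69, 333 and 49.5 on the deficient side. Libraries a and c of the deficient side lay below every wild-type library, while library b lay inside the wild-type range. That value stood for 306 tags, against 6 and 42 in the other deficient-side libraries. In the authors' deposited table the log2 fold change of Ftsj1 was -1.72 ± 1.03 (SE), with an adjusted p of 0.594. The log2 ratio recomputed from the recovered counts was -3.95 without library b. Whether Ftsj1 tags fall in an altered part of the gene was not tested. The reading of a positive value as higher in deficient hearts rests on this negative sign, which Ftsj1 also had in the 4 other tables at -1.56 to -3.38.

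Whether deficient library b carries the right label was not tested. All 200 passing genes with recovered counts kept their direction without it, but they had been called in a comparison that counted it as deficient, so their values do not bear on its label.

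Wild-type library b stood apart from the rest. Of 7772 tested genes with a mean between 20 and 200, 22.0% were highest in it and 26.3% were lowest in it, the largest shares of any library in both respects. A single library held over 50% of the summed count for 760 of these genes, and for 336 of them it was wild-type library b. Genes of airway epithelium were among its excess. Scgb1a1, the secretoglobin of airway club cells, had 365 normalized counts there and at most 0.948 in any other library. The surfactant gene Sftpc had 239 there and at most 1.09 elsewhere, and the airway defence gene Bpifa1 had 1352 there and at most 4.36 elsewhere. None of these has a p-value in the authors' deposited table. The falls described in detail are given with their value in each wild-type library.

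In the authors' deposited table, 236 of the 19847 tested genes had an adjusted p below 0.05, 1.19% of those tested, and these are called passing. The rises numbered 83 (0.418%) and the falls 153 (0.771%), and 62 of the 236 carried only the symbol of a predicted gene model. The median log2 fold change over all tested genes was 0.01, with 51.1% positive. The rises had a median mean of 81.9 normalized counts and the falls of 239. Only 23 of 2756 tested genes with a mean of 2000 or more passed.

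The 3 deficient libraries all lay above, or all below, the 3 wild-type libraries for 193 of the 200 passing genes with recovered counts, 74 rises and 119 falls. The same held for 1424 of the 10796 tested genes of mean up to 200, 13.2%, so such separation was common without passing. A second test gave fewer calls. limma on log2(normalized count + 1) of those 10796 genes called 0 at an adjusted p below 0.05, with 699 at an unadjusted p below 0.05. Of the 129 genes in that fit that passed in the authors' deposited table, 125 had an unadjusted p below 0.05 by limma, 54 higher and 71 lower. Those 129 had been picked for their difference in the same 6 libraries, so the 125 are no separate support. The p-values measure the spread among 3 mice a side, and the counts of calls depend on the test.

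**Figure D1:**
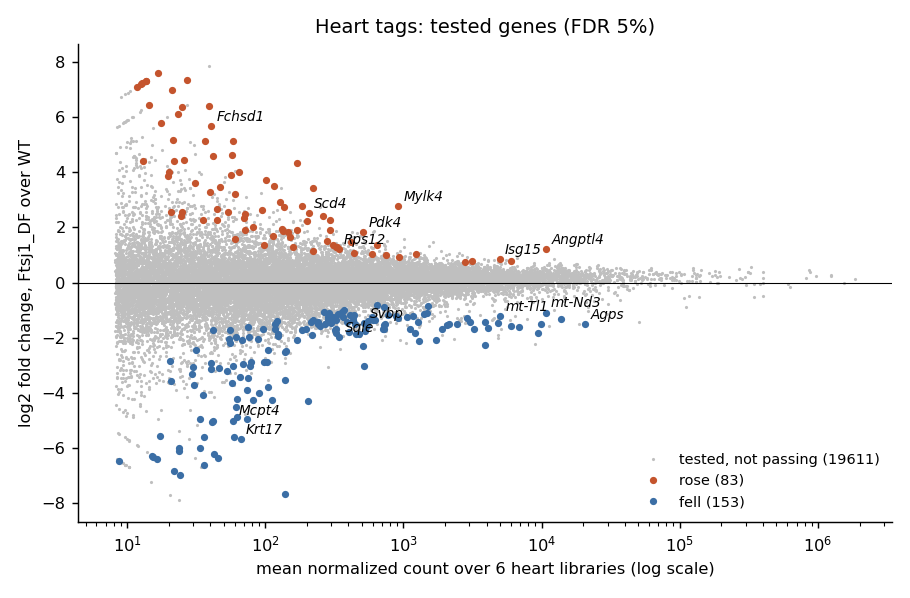
Log2 fold change of each tested heart gene, deficient over wild-type (vertical axis), against its mean normalized count over the 6 libraries (horizontal axis, log scale), from the authors' deposited table. The 83 rises (orange) and 153 falls (blue) stand over 19611 other tested genes (grey), and the spread of fold changes narrows from left to right.

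The clearest rise was in a muscle kinase. Mylk4, a myosin light chain kinase of heart muscle, had 259, 215 and 234 normalized counts in the wild-type libraries and 1002, 1605 and 2206 in the deficient ones. Every deficient library was over 3 times any wild-type library, and the mean rose from 236 ± 22.3 to 1604 ± 602 (SD, n = 3 each), a 6.80-fold difference. Its log2 fold change was 2.77 ± 0.37 in the authors' deposited table, with an adjusted p of 2.52e-09, the smallest among the rises. The ratio ranged from 2.47 to 3.01 on the log2 scale as each library was left out.

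Scd4, the desaturase of fatty acids found chiefly in heart, had 30.8, 79.9 and 73.1 normalized counts in wild-type and 377, 395 and 281 in deficient libraries. Its lowest deficient library was above its highest wild-type library. In the authors' deposited table the log2 fold change was 2.52 ± 0.46, with an adjusted p of 1.07e-04. Pdk4, the kinase that turns off pyruvate dehydrogenase and so spares glucose, had 167, 200 and 305 in wild-type and 1247, 716 and 420 in deficient libraries. The groups did not overlap, but the 3 deficient libraries differed among themselves by more than the 3 wild-type ones did.

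Pprc1, a coactivator of the PGC-1 family that drives mitochondrial genes, went from 45.0, 51.4 and 116 to 342, 388 and 271 normalized counts, again without overlap. Acot6, a thioesterase that frees fatty acids from coenzyme A, went from 477, 533 and 477 to 900, 1150 and 937 with narrow spread on both sides. Angptl4, a secreted inhibitor of lipoprotein lipase, rose by 1.22 ± 0.34 on the log2 scale (adjusted p = 0.0312) in the authors' deposited table. Its mean of 10815 was too high for recovery of the counts.

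The lists around these genes held few calls. Of 18 tested members of the list for PPAR targets and fasting, 13 were positive, with a median log2 fold change of 0.23 against 0.01 over all tested genes, and Pdk4 and Angptl4 were the 2 that passed. Enzymes that oxidise fatty acids had 10 of 24 tested members above 0, a median of -0.03 and no call. For cholesterol synthesis and uptake 11 of 23 were positive, and the single call was a fall. Sqle, the squalene epoxidase that catalyses the first oxygen-requiring step of sterol synthesis, had 480, 637 and 524 normalized counts in wild-type and 150, 111 and 156 in deficient libraries. All 3 deficient libraries lay below every wild-type library, and the mean fell 3.94-fold. This was a log2 fold change of -1.98 ± 0.30 in the authors' deposited table, with an adjusted p of 2.94e-07.

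**Figure D2:**
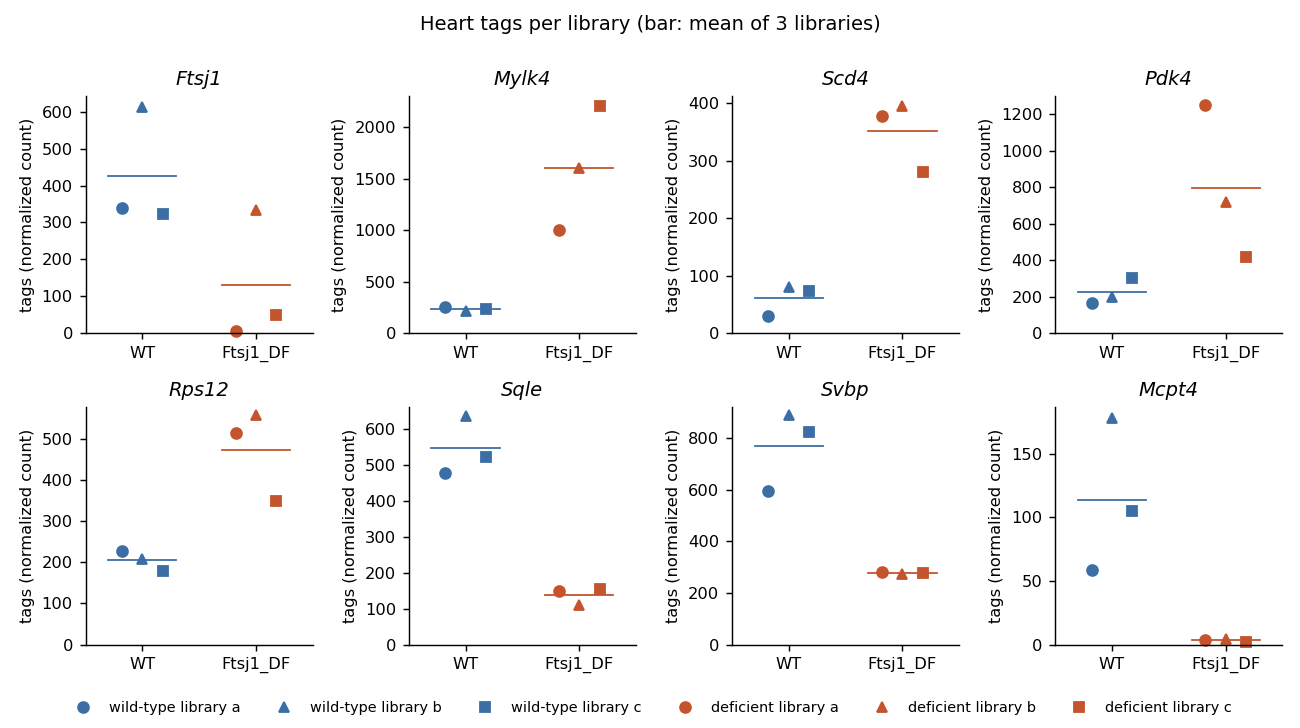
Normalized counts per heart library (vertical axes, from 0) for 8 genes on the wild-type and deficient sides, with circles, triangles and squares for libraries a, b and c and a bar for the mean of 3. Ftsj1 shows deficient library b at 333 among the wild-type values, while Mylk4, Scd4, Pdk4, Rps12, Sqle, Svbp and Mcpt4 separate the sides without overlap.

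Genes of translation and of tRNA were of interest because FTSJ1 acts on tRNA. The ribosomal protein gene Rps12 had 228, 207 and 178 normalized counts in wild-type and 514, 559 and 349 in deficient libraries, without overlap. It was the only call among 76 tested cytosolic ribosomal protein genes, of which 48 were positive with a median of 0.11. Trub2, a pseudouridine synthase of mitochondria, had 77.4, 35.8 and 58.9 in wild-type and 224, 267 and 140 in deficient libraries. Cdkal1, which modifies an adenosine next to the anticodon of a lysine tRNA, fell by 1.21 ± 0.29 on the log2 scale (adjusted p = 0.00762) in the authors' deposited table. These 2 were the calls among 57 tested tRNA and 2′-O-methylation enzymes, 37 of them positive, with a median of 0.15.

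The aminoacyl-tRNA synthetases, which load tRNAs with amino acids, were mostly positive without a single call. Of 37 tested members 32 were positive, with a median of 0.34, and 6 had an unadjusted p below 0.05, led by Eprs at 0.72 ± 0.25 and an adjusted p of 0.138 in the authors' deposited table. Summed over the 15 members with recovered counts, the level was 3919, 4558 and 4118 normalized counts in wild-type and 5304, 5756 and 5202 in deficient libraries. The sums did not overlap, and the log2 ratio of 0.37 stayed between 0.32 and 0.43 without any 1 library. Sums of other lists did not overlap either. These were cytosolic ribosomal proteins, with a log2 ratio of 0.19, clock genes, with -0.36, and cardiac transcription factors, with 0.48. The others were markers of adipocytes, with -0.94, of thymocytes, with -0.58, and of B and plasma cells, with -0.44. Among single tested genes of mean up to 200 the sides lay apart for 13.2%, so such separation of a sum was not rare, and it was not tested. Slc7a5, the carrier of large neutral amino acids, rose by 1.05 ± 0.28 (adjusted p = 0.0215) in the authors' deposited table and was the single call in the list for the integrated stress response, of which 12 of 24 were positive.

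The machinery that makes or removes uncapped ends did not yield calls. For decapping, deadenylation and 5′-to-3′ decay 23 of 35 tested members were positive with a median of 0.14, and for nonsense-mediated decay 12 of 17 with a median of 0.33. Dcp2, the decapping enzyme, stood at 0.81 ± 0.39 with an adjusted p of 0.428 in the authors' deposited table. Outside that list Exosc5, a subunit of the RNA exosome that degrades RNA from the other end, fell from 243, 337 and 369 normalized counts to 163, 90.5 and 119, without overlap.

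Kif22, a kinesin that moves chromosomes, had 45.0, 31.2 and 12 normalized counts in wild-type and 136, 387 and 151 in deficient libraries. Without deficient library b its log2 ratio of 2.93 was 2.28. Ndc80, a kinetochore protein, had 70.3, 35.8 and 32.7 in wild-type and 497, 379 and 86.1 in deficient libraries, with library c only just above the wild-type range. The linker histone H1f3 had 74.3, 115 and 90.6 in wild-type and 237, 219 and 225 in deficient libraries, the tightest deficient group of these genes.

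The list for cell cycle and mitosis, had 17 of 27 tested members positive with a median of 0.23 and none passing. For replication-dependent histones, 9 of 13 were positive with a median of 0.39, and H1f3 passed. Among nuclear regulators Vezf1, a zinc finger factor of blood vessel development, went from 211, 205 and 152 normalized counts to 441, 506 and 427. Chd1, a chromatin remodeller, went from 250, 321 and 270 to 586, 689 and 500. Neither gene's groups overlapped.

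In some of the rises 1 library held most of the summed count. Fchsd1 had 0.790, 2.75 and 1.09 normalized counts in wild-type and 31.3, 202 and 4.72 in deficient libraries. Its log2 ratio fell from 5.68 to 3.54 without deficient library b. Zbtb1, a transcription factor of lymphocyte development, had 46.6, 37.6 and 27.3 in wild-type and 182, 874 and 158 in deficient libraries, and its log2 ratio of 3.44 was 2.19 without library b. Med12, a subunit of the Mediator complex, had 8.69, 10.1 and 3.27 against 49.3, 303 and 10.6, and went from 4.04 to 2.03.

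Deficient library a carried Iqce, with 22.9, 18.4 and 14.2 in wild-type and 459, 120 and 59.0 in deficient libraries. More evenly raised were Cfap126, a protein of motile cilia, at 3.16, 3.67 and 7.64 against 85.3, 50.1 and 36.6, and Rgs14, a regulator of G protein signalling, at 10.3, 10.1 and 16.4 against 110, 50.1 and 70.7. Lin7b, a scaffold protein of cell junctions, was at 15.8, 18.4 and 12 against 86.2, 59.9 and 77.8. Of the 77 rises with recovered counts, 29 had over 50% of their summed count in 1 library, 14 of them in deficient library b.

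Platelet genes gave 1 rise. Treml1, a receptor of platelet granules, had 19.0, 1.84 and 2.18 normalized counts in wild-type and 84.3, 54.5 and 120 in deficient libraries. Nfe2, a transcription factor that platelet formation needs, went from 38.7, 79.9 and 41.5 to 114, 210 and 197 and also passed. Of the 13 tested platelet and megakaryocyte markers 9 were positive with a median of 0.27. Their sums over 13 members with recovered counts overlapped, at 668 to 1291 in wild-type and 714 to 1131 in deficient libraries, and their part in the rise of Treml1 was not tested.

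Isg15, a ubiquitin-like protein induced by interferon, was the single call of the interferon list. In the authors' deposited table its mean was 4970 normalized counts and its log2 fold change 0.85 ± 0.20 (adjusted p = 0.00627). Its promoter is shown because it holds the motif bound by interferon-activated factors. RefSeq on GRCm38.p6 places this stretch at chr4:156200871-156200900 on the minus strand, 82 to 53 bases before the start of the gene, and capitals mark 3 overlapping matches of GAAANNGAAA.
Isg15: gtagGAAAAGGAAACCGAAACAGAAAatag
The motif was searched on both strands from 250 bases before to 50 bases after each start. It was present in 3.99% of 27025 genes with a promoter sequence, in 3.86% of 13081 tested ones and in 17 of 32 tested interferon-stimulated genes, 53.1%.

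The interferon genes did not divide by this motif. Of the 17 with it 12 were positive with a median log2 fold change of 0.16, and of the 15 without it 9 were positive with a median of 0.32. Over the whole list 29 of 44 tested members were positive with a median of 0.18, and only Isg15 passed. Ifit1, another gene of the response, stood at 1.04 ± 0.51 and Parp9 at -1.08 ± 0.41 in the authors' deposited table, with adjusted p-values of 0.445 and 0.206. Summed over 27 members with recovered counts the level was 3947 to 5939 in wild-type and 3780 to 5799 in deficient libraries, which overlap almost fully.

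Among the falls with recovered counts, some were even across the deficient libraries. Svbp, the partner of the vasohibins that trim tubulin, had 594, 890 and 822 normalized counts in wild-type and 279, 274 and 276 in deficient libraries. The 3 deficient libraries were close together and below every wild-type library, and the mean fell 2.78-fold, from 769 ± 155 to 276 ± 2.55 (SD, n = 3 each). Its log2 fold change in the authors' deposited table was -1.48 ± 0.28, with an adjusted p of 3.78e-04. Bhlhe40, a repressor tied to the circadian clock, had 518, 433 and 546 against 289, 250 and 203, and was the 1 call among 17 tested clock genes, of which 10 were positive.

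Small and regular falls were found in Rcn2, a calcium-binding protein of the secretory pathway, with 919, 962 and 930 normalized counts against 506, 527 and 472. Lrrc4c, a cell surface protein of synapses, had 740, 864 and 845 against 473, 476 and 449. In both genes no library came within 200 normalized counts of the other side. A wild-type order of c over a over b was seen in 37 of the 123 falls with recovered counts, 30.1%, against 25.9% of all 7772 tested genes of mean 20 to 200.

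Falls among abundant transcripts, whose counts per library could not be recovered, were modest in fold. In the authors' deposited table Agps, an enzyme of ether lipid synthesis with a mean of 20764, stood at -1.50 ± 0.41 (adjusted p = 0.0269). Hdac9, a histone deacetylase that restrains growth genes in muscle, had a mean of 13802 and a log2 fold change of -1.31 ± 0.35 (adjusted p = 0.0236) in the authors' deposited table. Foxp1, a forkhead factor of heart development, stood at -1.44 ± 0.34 and the formin Diaph2 at -1.61 ± 0.41 in the authors' deposited table, with adjusted p-values of 0.00727 and 0.0172.

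Mitochondrially encoded transcripts are made without a cap, so their uncapped ends do not record decapping. Of the 15 mitochondrial mRNAs and rRNAs only mt-Atp6 was positive and only mt-Nd3, a subunit of complex I, passed, at -1.10 ± 0.24 with an adjusted p of 0.00175 in the authors' deposited table. Of the nuclear subunits of complex I, 25 of 35 tested were positive and 10 negative with a median of 0.21, and for complexes II to V 30 of 38 were positive with a median of 0.17, none passing. The sums over 10 and 3 members with recovered counts overlapped between the sides, at 2724 to 3208 against 3123 to 3946 and at 769 to 939 against 860 to 1163. For the mitochondrial ribosomal proteins 54 of 72 were positive with a median of 0.20 and none passed.

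The mitochondrial tRNAs were mostly lower in deficient hearts. These genes were picked by symbol after their values were seen, so they support nothing beyond a description. The table lists 22, of which 21 were tested, 19 were negative, 5 fell and 0 rose (0.771% of all tested genes fell), with a median log2 fold change of -1.15 and a range of -2.88 to 0.32. The tRNA for lysine, mt-Tk, had 443, 375 and 486 normalized counts in wild-type and 232, 111 and 132 in deficient libraries. The tRNA for methionine, mt-Tm, had 763, 779 and 860 against 288, 196 and 429. For tyrosine, mt-Ty had 625, 453 and 732 against 269, 203 and 284.

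None of these 3 overlapped between the sides. In total, 7 of 17 tested mitochondrial tRNAs with recovered counts were separate and lower, against 8.22% of the 10796 tested genes of mean up to 200. The other 2 falls in the authors' deposited table were mt-Tl1, at -1.23 ± 0.29 (adjusted p = 0.00581), and mt-Ts2, at -1.15 ± 0.32 (adjusted p = 0.0312). Summed over 18 members, the level was 4435, 4109 and 5392 in wild-type and 2264, 1429 and 2754 in deficient libraries, without overlap. The log2 ratio of these sums was -1.11, and it ranged from -0.89, without deficient library b, to -1.33, without deficient library c. Wild-type library b had the lowest of the wild-type sums. The libraries were made from polyadenylated RNA, so a tag from a tRNA gene can come from the mature tRNA only if it carries a tail, or from a longer precursor, and the counts do not separate these.

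**Figure D3:**
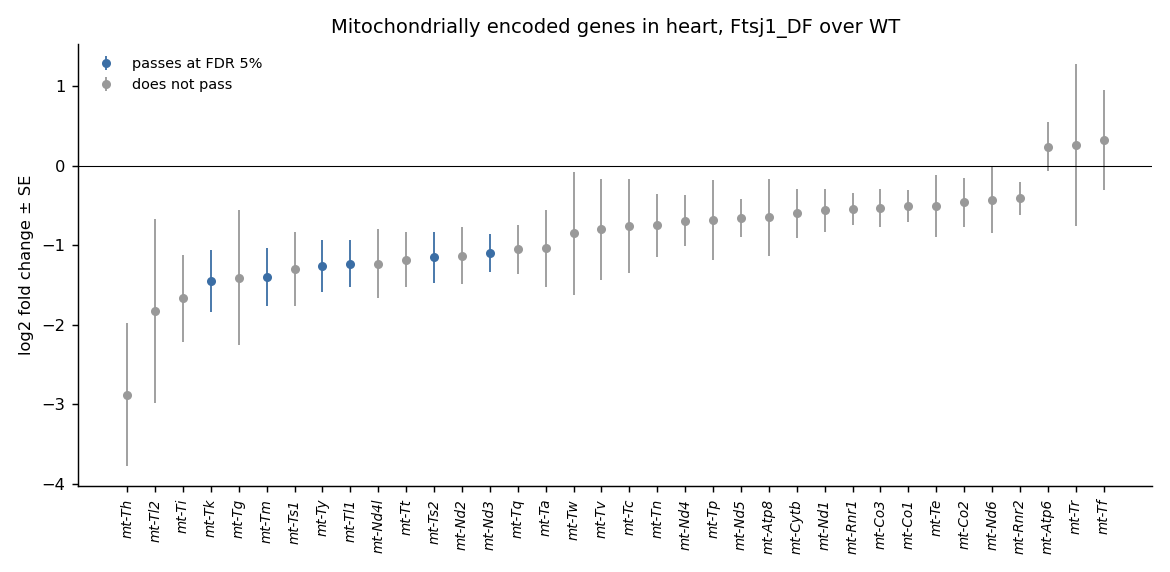
Log2 fold change, deficient over wild-type, with its standard error (vertical axis) for each tested mitochondrially encoded gene in rising order, from the authors' deposited table. The 6 genes that passed (blue) all lie below 0, and 3 genes lie above 0.

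Several of the largest falls were in genes of immune cells and epithelia, and wild-type library b was often the highest. Mcpt4, a protease of mast cells, had 58.5, 178 and 105 normalized counts in wild-type and 3.79, 4.36 and 2.36 in deficient libraries. It fell 32.5-fold, and the log2 fold change was -5.01 ± 0.76 (adjusted p = 2.59e-07) in the authors' deposited table. Tpsb2, another mast cell protease, had 105, 213 and 41.5 in wild-type and 2.84, 0 and 9.43 in deficient libraries. All deficient libraries were far below the lowest wild-type library for both proteases.

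No other mast cell gene passed. Of 6 tested members, Mcpt4 and Tpsb2 included, 3 were positive and 3 negative. Among the others Cpa3 stood at 1.11 ± 0.62, Kit at 0.74 ± 0.89 and Cma1 at -0.52 ± 0.61 in the authors' deposited table. The sum over 9 members with recovered counts was 305 to 453 in wild-type and 184 to 419 in deficient libraries. The highest deficient library lay inside the wild-type range. That sum also includes Mcpt4 and Tpsb2, so it does not describe the other members alone. Mcpt8 was at 0. The T cell gene Cd5 had 70.3, 241 and 42.6 normalized counts in wild-type and 1.90, 7.63 and 5.90 in deficient libraries, and its log2 ratio of -4.52 was -3.46 without wild-type library b. The cytotoxic protease gene Ctsw had 51.4, 197 and 1.09 against 0, 1.09 and 2.36, and its sides overlapped. Of 19 tested T and NK markers 9 were positive with a median of -0.16, and Cd5 and Ctsw were the 2 calls.

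Krt17, a keratin of hair follicles and basal epithelium, had 130, 241 and 19.6 normalized counts in wild-type and 1.90, 2.18 and 3.54 in deficient libraries. Aqp5, a water channel of gland and lung epithelium, had 127, 494 and 153 against 9.48, 10.9 and 47.2, and its log2 ratio of -3.52 was -2.64 without wild-type library b. Gem, a small GTPase that damps calcium channels, had 142, 867 and 158 against 21.8, 9.81 and 27.1, and its ratio of -4.31 was -2.94 without that library. Isy1, a splicing factor, rested on fewer libraries still, with 1.58, 703 and 133 in wild-type and 1.90, 2.18 and 0 in deficient libraries.

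Of the 123 falls with recovered counts 59 were highest in wild-type library b, and WT library b was the highest of the 3 wild-type libraries in 48.0% of the falls against 32.1% of all tested genes of mean 20 to 200. Without it 30 falls shrank by over 1.5-fold, and all kept their direction. Over 50% of the summed count lay in 1 library for 41 falls, 33 of them in wild-type library b, 5 in library a and 3 in library c. The part of airway or other tissue in these falls was not tested.

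Markers of other tissues give the setting of those values. Of 16 airway and lung members 6 were tested and 5 had no p-value, and the sum over 14 with recovered counts was 600, 3231 and 715 in wild-type and 694, 812 and 519 in deficient libraries. Wild-type library b alone stood out, and the log2 ratio of -1.17 was 0.04 without it. Neutrophil markers behaved likewise, at 616, 4885 and 610 against 363, 851 and 599. In wild-type library b 4126 of that sum came from Ltf, which secretory epithelium also makes. Their log2 ratio of -1.75 was -0.02 without the library.

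Pancreatic acinar markers were at 1407, 2612 and 1087 in wild-type and 1147, 1446 and 1080 in deficient libraries, and the log2 ratio of -0.48 was -0.03 without wild-type library b. Of 21 tested members 20 were negative. Among 16 tested members with recovered counts 1 was positive with a median log2 ratio of -0.48, and 9 were positive with a median of 0.01 once that library was left out. Cela2a and Sycn were at 0.

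Hepatocyte markers were at 3256, 4302 and 1437 in wild-type and 1351, 2152 and 1626 in deficient libraries. Wild-type libraries a and b were high and library c lay within the deficient range. All 23 tested members were negative with a median of -0.74, and none passed. Over the 16 tested members with recovered counts the median log2 ratio was -0.79, and -0.49 without wild-type library b, when 1 of the 16 was positive. Serpina3k was at 0.

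Adipocyte markers differed from these 4 sets in that all 3 wild-type libraries were higher, at 1557, 1491 and 1033 against 866, 596 and 671. They were not alone in this. B and plasma cell markers were at 1537, 1864 and 1274 against 1223, 985 and 1232. Thymocyte markers were at 830, 1340 and 851 against 815, 816 and 390. Of 18 tested adipocyte members 16 were negative with a median of -1.02, the lowest of the 57 lists, and 9 had an unadjusted p below 0.05. No adipocyte member passed. Plin1, which coats lipid droplets, had 90.9, 39.5 and 79.7 normalized counts in wild-type and 22.7, 26.2 and 20 in deficient libraries, without overlap. Ucp1, the uncoupler of brown fat, had 153, 115 and 267 against 75.8, 90.5 and 95.5. Retn stood at -2.22 ± 0.80 and Cfd at -2.20 ± 0.79 in the authors' deposited table, with adjusted p-values of 0.175 and 0.174. Without wild-type library b the log2 ratio of the sums, -0.94, was -0.86. Lipe was at 0, and the amount of fat taken with each heart was not recorded in the labels.

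**Figure D4:**
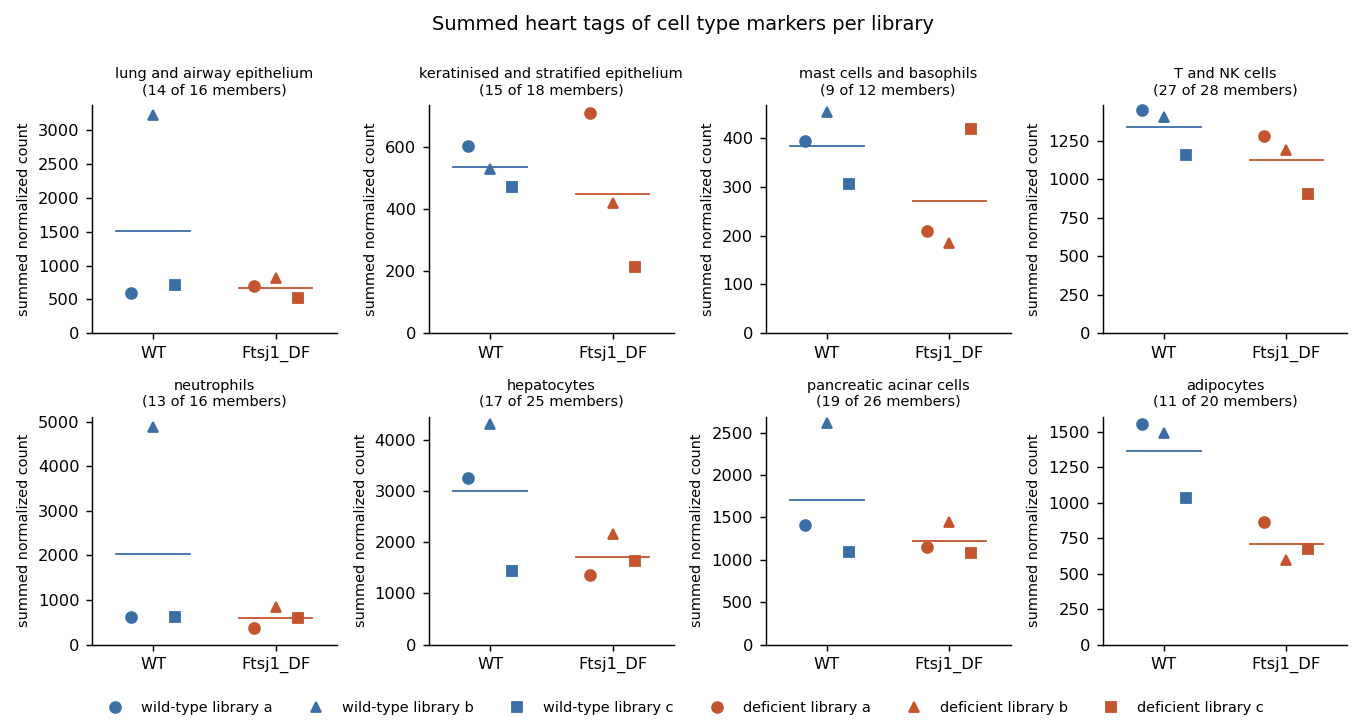
Summed normalized counts of 8 sets of cell type markers per heart library (vertical axes, from 0), with the number of members that had recovered counts and a bar for the mean of 3 libraries a side. Wild-type library b stands alone for airway, neutrophil and acinar markers, while the adipocyte sums of the 2 sides do not overlap.

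Sarcomere, calcium handling and ion channel genes changed little as lists, although the muscle kinase Mylk4, described above, rose. Of 27 tested sarcomere genes 13 were positive with a median of 0.00, of 18 calcium handling genes 11 with a median of 0.17, and of 24 ion channel genes 15 with a median of 0.08, and none of the 3 lists held a call. Atrial cardiomyocyte markers were positive in 4 of 13 tested members, with a median of -0.46 and no call. Over 3 members with recovered counts they summed to 352, 601 and 568 in wild-type and 328, 336 and 363 in deficient libraries, which overlapped. Cardiac transcription factors were positive in 16 of 19 tested members, with a median of 0.33 and no call. Their sum over 11 members was 1046, 1088 and 1368 normalized counts in wild-type and 1831, 1520 and 1516 in deficient libraries, without overlap. Mef2c, a factor of cardiac muscle genes, was nearest to the threshold at 1.27 ± 0.47 with an adjusted p of 0.183 in the authors' deposited table.

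Natriuretic and hypertrophy markers had 3 of 13 tested members positive and a median of -0.47. Their sum over 5 members with recovered counts overlapped, at 807 to 1305 normalized counts in wild-type and 874 to 1106 in deficient libraries, with a log2 ratio of -0.01, and 0.26 without wild-type library b. Ankrd1, a stress-induced protein of the sarcomere, stood at -0.88 ± 0.38 with an adjusted p of 0.341 in the authors' deposited table, and none passed. Among the cells between muscle fibres, fibroblast and matrix genes were positive in 8 of 27 with a median of -0.23, endothelial genes in 16 of 22 with a median of 0.16, and endocardial, epicardial and valve genes in 4 of 14 with a median of -0.68. None of these 3 lists held a call. B and plasma cell genes were positive in 4 of 13 with a median of -0.79, and the immunoglobulin gene Ighm passed at -2.28 ± 0.66 with an adjusted p of 0.0481 in the authors' deposited table.

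**Figure D5:**
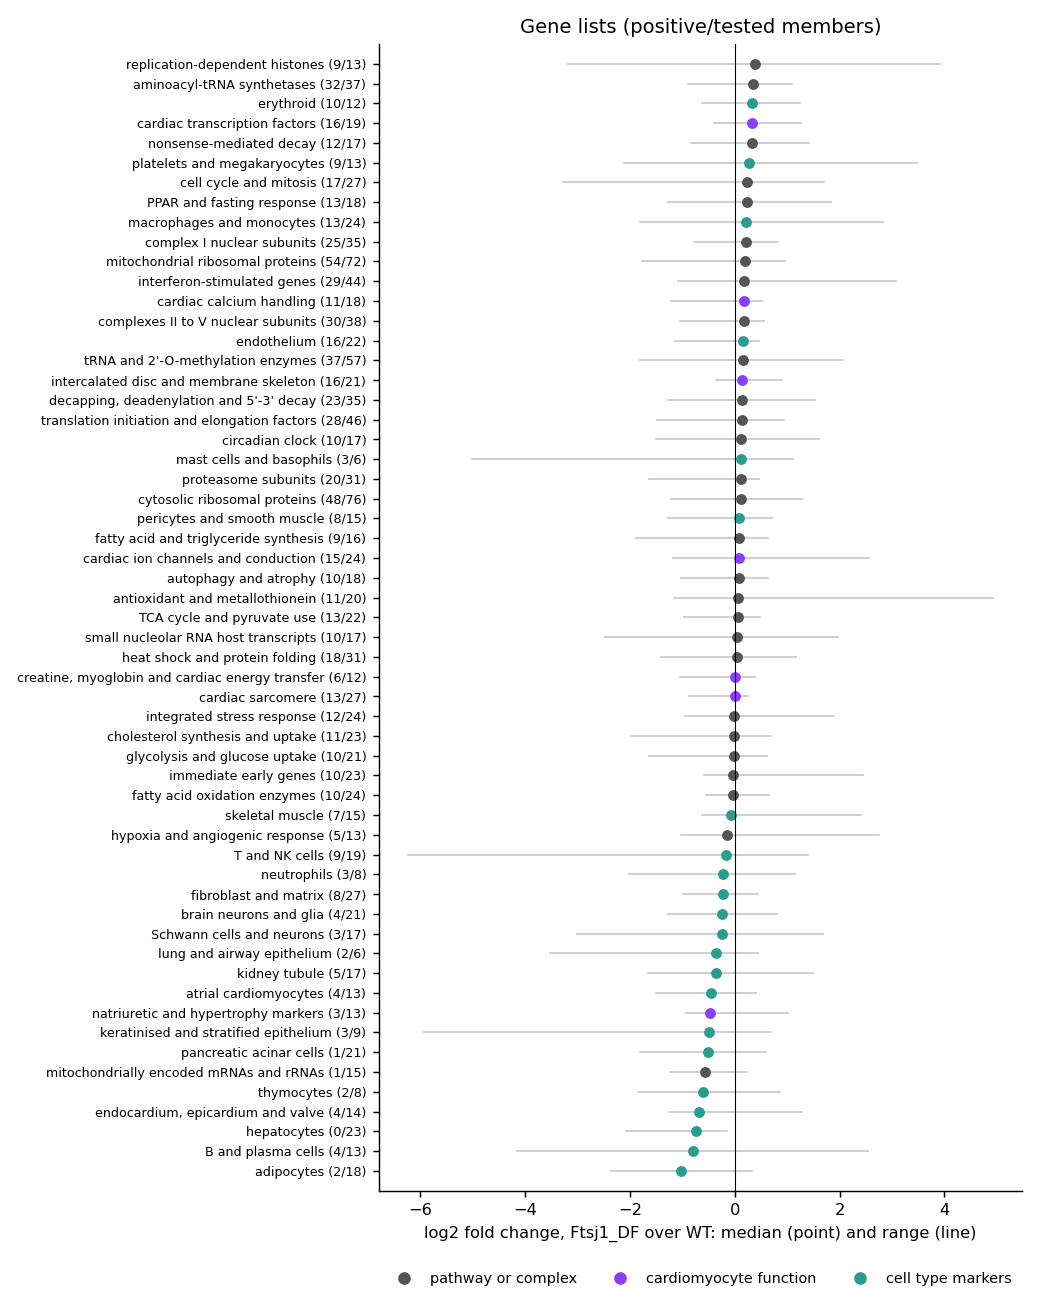
Median (point) and range (line) of the log2 fold change, deficient over wild-type, of the tested members of each of 57 gene lists (vertical axis, with positive over tested members in brackets), from the authors' deposited table. Medians run from 0.39 for replication-dependent histones to -1.02 for adipocyte markers, and 26 lie below 0.

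Whether a heart change differed from that in another organ was tested gene by gene as the difference of the 2 log2 fold changes. Heart differed from the brain-named table for 75 of 16605 genes tested in both (0.452%), from kidney for 114 of 17874 (0.638%), from the liver-named table for 31 of 18769 (0.165%) and from spleen for 22 of 18788 (0.117%). Of the heart calls tested in both tables, 38 of 191, 20 of 199, 19 of 219 and 13 of 212 differed. These genes were already picked for a large heart value, so the share is a description. Apart from spleen the organs came from the same mice, and the test treats them as independent.

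Sqle fell in heart and stood at 0.44 ± 0.36 in kidney in the authors' deposited table, a difference of -2.41 ± 0.47 (adjusted p = 5.31e-04). Scd4 differed from the brain-named table by 3.74 ± 0.77 (adjusted p = 0.00198) and from the liver-named table by 3.21 ± 0.61 (adjusted p = 0.00163), but by 0.37 ± 1.10 from kidney. Rgs14 differed from all 4 tables, by 3.16 to 4.83. For Mylk4 the differences were 2.44 to 3.64, and none passed, with adjusted p-values of 0.0549 to 0.608. Isg15 had positive fold changes in all 5 tables and none of its differences passed.

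Of the heart calls tested in kidney, 11 of 199 also passed there, 9 with the same sign, while 331 of the 17874 genes tested in both organs passed in kidney (1.85%). The organs came from the same mice, so nothing is read from this share. Those 9 were all falls, Septin3, Scn9a, Efcab6, Pafah1b2, Foxp1, Aadat, Mdga2, Gria1 and Slc24a4. In heart Septin3 went from 251, 334 and 317 normalized counts to 121, 79.6 and 79.0, and Aadat, an aminotransferase, from 328, 376 and 503 to 197, 156 and 151. Efcab6 went from 306, 347 and 454 to 133, 94.8 and 147, and Slc24a4, an exchanger of sodium, calcium and potassium, from 395, 832 and 289 to 152, 83.9 and 187. None of these 4 overlapped between the sides. Gpatch3 had 15.8, 260 and 74.2 in wild-type and 4.74, 0 and 2.36 in deficient hearts, and was opposite in kidney. The gene model Gm37988 was the 1 heart call to pass in the brain-named table, with the opposite sign, and none passed in the liver-named or the spleen table.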

How the data were processed

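Tags from 6 heart libraries, 3 per genotype, were analysed. Per the submitters' processing notes, the sources name GRCm39, featureCounts of Subread 2.0.3 and DESeq2, whose model is not stated. The deposited mean is a signal in normalized counts, and the deposited fold change and standard error are on the log2 scale. The deposited Wald statistic is a score. Each deposited p-value, raw or adjusted, was used as given. The 1 row without a gene name was left out. Depth per library is unknown beyond the size factors, which span 1.49-fold.

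Whole tags per library were recovered from the deposited mean for tested genes of mean up to 200. The limit was 600 for list members and mitochondrial tRNAs and 1000 for passing genes. Counts were kept where 1 solution returned the deposited fold change. Of 11338 genes tried, 11336 had 1 solution. The recovery was tested on genes simulated at set means up to 200, with fold changes from the same fit that the recovery matches. Higher means were not simulated, so that check does not cover them. The limma test and the test of differences below were also tested on simulated data. Recovered values were tested with limma 3.58.1 in R 4.3.3 with a pseudocount of 1. Ratios of recovered counts are of group means. Differences between tables used a 2-sided z test with Benjamini-Hochberg adjustment. Lists are given by counts, medians and, over members with recovered counts, sums per library, with no test. The comparison, the gene lists and the alternatives were chosen with earlier results of these data known.

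Genes were named by rule: Ftsj1, the 12 largest rises and falls of mean 20 or more, the 10 smallest adjusted p in each direction, passing list members up to 4 per list, passing genes of mean 2000 or more, and up to 3 examples per list. Acot6, Chd1, Ndc80, Nfe2, Exosc5, Rcn2, Lrrc4c, Septin3, Aadat, Eprs, Dcp2, Ifit1, Parp9, Mef2c, Plin1, Ucp1, Retn, Cfd, Sftpc, Scgb1a1, Bpifa1, Ltf, the mitochondrial tRNAs and the other falls shared with kidney were named after their values were seen. Alternatives were other thresholds, filters on the mean, a rescaled statistic, a shift of all fold changes, limma and leaving out each library. Some genes that met the naming rule are not reported here.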

Additional observations from a re-analysis of the deposited data

Results flagged for a closer look

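These named genes had heart fold changes that differed from another organ's by the test of the difference itself. Each value is the heart log2 fold change minus the other, from the authors' deposited tables. The calls are those before the statistic was divided by its robust spread. After that division 11, 50, 4 and 29 genes differed from the brain-named, kidney, liver-named and spleen tables. Not all of the differences from the liver-named table given below can be among those 4. Without wild-type library b the heart log2 ratio of Cd5 went from -4.52 to -3.46 and that of Gem from -4.31 to -2.94.

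Rgs14 differed from the brain-named table by 3.16, from kidney by 4.83, from the liver-named table by 3.38 and from spleen by 3.22. Iqce differed from the brain-named, liver-named and spleen tables by 4.20, 3.97 and 3.80. Cfap126 differed from the brain-named table by 4.02 and from spleen by 6.80, and Scd4 from the brain-named and liver-named tables by 3.74 and 3.21. Zbtb1 differed from the brain-named table by 3.16, Pprc1 from spleen by 3.21 and Lin7b from the liver-named table by 2.94.

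Among falls, Cd5 differed from the brain-named, kidney and spleen tables by -4.21, -7.11 and -4.97, and Ankef1 from the brain-named, kidney and liver-named tables by -3.94, -5.12 and -4.22. Ankef1 had 302, 243 and 38.2 normalized counts in wild-type and 9.48, 16.3 and 16.5 in deficient hearts, without overlap. Gem differed from the brain-named table by -5.07 and from kidney by -4.95, Krt17 from the liver-named table by -7.39, Sqle from kidney by -2.41, and mt-Nd3 from the brain-named table by -2.64.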

How the results depend on the processing

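The 236 calls became 90 at a false discovery rate of 1%, 381 at 10%, 136 at a mean of at least 100, and 48 with the statistic divided by its robust spread of 1.16. Under these 4 settings the 83 rises became 34, 130, 39 and 16 and the 153 falls 56, 251, 97 and 32. limma on recovered counts called 0, with 699 at an unadjusted p below 0.05. Its fit covered 10796 genes and held only 129 of the 236 calls, so the 0 does not stand for all 236. The cause of these changes was not tested. Dividing by the spread took the differences from the brain-named, kidney and liver-named tables to 11, 50 and 4, while those from spleen rose from 22 to 29. With 1 library left out, 193 to 197 of the 200 genes had sides that lay apart. Fewer libraries can only keep or raise that number, so nothing is read from it. In the same settings limma's unadjusted calls ran from 517, without deficient library b, to 746, without wild-type library b. Of 68 passing named genes 25 stayed past the threshold after rescaling and 36 at 1%, and none reversed. Of 41 with recovered counts, 8 moved by over 1.5-fold without 1 library. A mean of 20 or more turned the medians of the cholesterol, neutrophil and mast cell lists, and a shift by 0.06 those of the snoRNA host and heat shock lists. No paired analysis was possible because neither the tables nor the recovered libraries carry mouse numbers.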

Other observations

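Genes of mean 20 or more without a p-value numbered 190, and counts were recovered for 189. Their summed count lay in 1 library to a median of 83.9%, against 30.5% for tested genes of mean 20 to 200. Wild-type library b was the highest for 83 of them, deficient library b for 31, deficient library a for 28, wild-type library a for 22, deficient library c for 15 and wild-type library c for 10. In wild-type library b these included Ltf at 4126 normalized counts, Bpifb1 at 1606, Scgb3a2 at 287 and Muc5b at 117, and also Aqp3 at 707. Single genes high in other libraries were Orai2, a calcium channel, at 4222 in wild-type library a, the mitotic kinase Aurkb at 431 in deficient library a, and Gucy2d at 486 in deficient library b. Klhl38, at 212, was also high in wild-type library b. All were named after their values were seen, and no list was tested.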
